A study of Rattus norvegicus with 8 samples.

Results

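The genes described here are the kinases of the mitogen-activated protein (MAP) kinase cascade and the dual-specificity phosphatases (DUSPs) that oppose them, in endothelial cells taken from rat lung 5 days after monocrotaline. Members were all genes whose symbol is Map4k, Map3k, Map2k, Mapk or Dusp followed by a number alone, where the symbol came from the accession that the array design gives to a probe. The RefSeq table of rat genes holds 66 such symbols. A probe was named for 52 of them, out of 26890 genes and unnamed transcripts read on the array, and 47 of the 52 were bright enough to be tested. Of those 47, 46 were well above background on all 8 arrays, so the brightness filter did not select them through one group.

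Sprague-Dawley rats of 8 to 10 weeks received monocrotaline at 60 mg/kg under the skin, or saline, with 4 rats in each group and 1 array per rat. Monocrotaline is a plant alkaloid that injures the lung vessels after the liver has activated it, and it is a common way to produce pulmonary hypertension in rats. The cells came from collagenase-digested lung on beads that bind CD31, a surface protein that endothelial cells share with platelets and some leukocytes, and their RNA was taken without culture. The comparison asks which genes differ in the CD31-selected cells at this early stage, monocrotaline against saline.

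The cascade passes a signal from kinase to kinase. MAP4Ks act near the membrane on MAP3Ks, MAP3Ks phosphorylate MAP2Ks, and MAP2Ks activate the MAPKs. The MAPKs are the ERKs for growth factor signals, ERK5 for flow and growth factor signals, and JNK and p38 for stress and cytokines. The DUSPs with a MAPK docking domain, also called MAP kinase phosphatases, remove the activating phosphates, and several of them are themselves switched on by the MAPKs that they shut off. The activity of these proteins is set by phosphorylation, which an array of RNA does not measure.

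The promoters of 4 members are printed, of which Map3k12, Dusp1 and Dusp5 were not called. Map3k13 has the one call, Map3k12 is its closest relative, and Dusp1 and Dusp5 are immediate-early feedback phosphatases. Each is the RefSeq sequence of build GRCr8 from 250 bases before to 50 after the gene's start, given 5′ to 3′ along the gene's strand. Capitals mark the cyclic AMP response element (CRE), TGACGTCA.
Map3k13: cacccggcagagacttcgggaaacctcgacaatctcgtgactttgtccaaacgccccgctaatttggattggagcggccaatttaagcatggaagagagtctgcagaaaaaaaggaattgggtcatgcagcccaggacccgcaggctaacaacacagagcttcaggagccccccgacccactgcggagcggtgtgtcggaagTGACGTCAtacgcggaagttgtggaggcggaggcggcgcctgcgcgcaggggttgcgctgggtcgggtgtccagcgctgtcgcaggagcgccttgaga
Map3k12: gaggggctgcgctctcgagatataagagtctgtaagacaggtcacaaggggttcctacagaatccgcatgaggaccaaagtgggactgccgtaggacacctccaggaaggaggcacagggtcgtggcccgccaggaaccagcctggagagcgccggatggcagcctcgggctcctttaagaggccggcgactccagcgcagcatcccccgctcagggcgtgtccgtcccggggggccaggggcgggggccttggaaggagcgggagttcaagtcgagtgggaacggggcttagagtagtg
Dusp1: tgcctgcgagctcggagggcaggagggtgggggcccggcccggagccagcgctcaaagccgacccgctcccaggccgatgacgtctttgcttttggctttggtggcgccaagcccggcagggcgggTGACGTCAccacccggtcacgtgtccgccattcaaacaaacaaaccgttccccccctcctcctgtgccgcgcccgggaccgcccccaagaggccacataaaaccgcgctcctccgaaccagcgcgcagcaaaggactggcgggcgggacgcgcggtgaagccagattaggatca
Dusp5: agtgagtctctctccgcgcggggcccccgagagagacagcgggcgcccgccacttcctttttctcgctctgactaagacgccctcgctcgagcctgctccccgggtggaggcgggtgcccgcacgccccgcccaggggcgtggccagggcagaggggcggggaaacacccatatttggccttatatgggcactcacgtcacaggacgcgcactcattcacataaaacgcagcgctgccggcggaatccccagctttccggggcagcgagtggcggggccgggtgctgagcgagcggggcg
The windows lie at chr11:92739614-92739913 on the minus strand for Map3k13, chr7:135526223-135526522 on the minus strand for Map3k12, chr10:17184603-17184902 on the plus strand for Dusp1 and chr1:262543524-262543823 on the plus strand for Dusp5. The CRE letters begin 48 bases upstream of the start of Map3k13 and 124 bases upstream of that of Dusp1. Of the 52 members 44 have a promoter in the table, and 4 of these hold the CRE on either strand (Dusp1, Dusp11, Map3k13 and Mapk10), against 1.83% of the 33469 promoters of the table. The AP-1 letters TGANTCA, which no CRE match overlapped, were found in 2 of the 44 (Map2k4 and Map3k8), against 7.33% of all promoters. The GC box GGGCGG was found in 31 of the 44, against 33.1% of all, and the TATA box TATAAA in 1 (Dusp14), against 14.2%. Each member was counted with 1 promoter, while the shares are over every promoter of the table, whatever gene it belongs to. The counts and the shares are thus not of like sets. These matches describe the letters only and say nothing on which factors bind.

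Of the 47 members tested 1 fell, 0 rose and 46 did not pass the test (limma, Benjamini-Hochberg adjusted p under 0.05 over 19137 genes). The one that fell was Map3k13. Of all genes tested, 0.0627% fell and 1.37% rose by that rule, so the 1 fall among 47 rests on a single gene, whose fall was already known when the set was drawn up. At an unadjusted p under 0.05, 6 members were lower and 0 higher, while 7.23% of all genes were lower and 6.72% higher. In 5 members (Map3k13, Dusp19, Dusp1, Map4k4 and Mapk14) every monocrotaline array lay below every saline array, which held for 3.99% of all genes. In 0 members every monocrotaline array lay above, which held for 4.56% of all genes. Map3k13, with its fall known beforehand, is counted among both the 6 and the 5. The median log2 fold change over the 47 members was -0.14, against -0.03 over all genes, and 15 of the 47 were positive, against 46.1% of all genes. Between 4 and 7 members lay wholly below saline under the other scalings, corrections and sources of the values, and 1 lay wholly above with the deposited values. Of all genes, 3.99% to 4.77% lay wholly below in these settings, with 4.68% for the deposited values, which gave the 7.

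**Figure D1:**
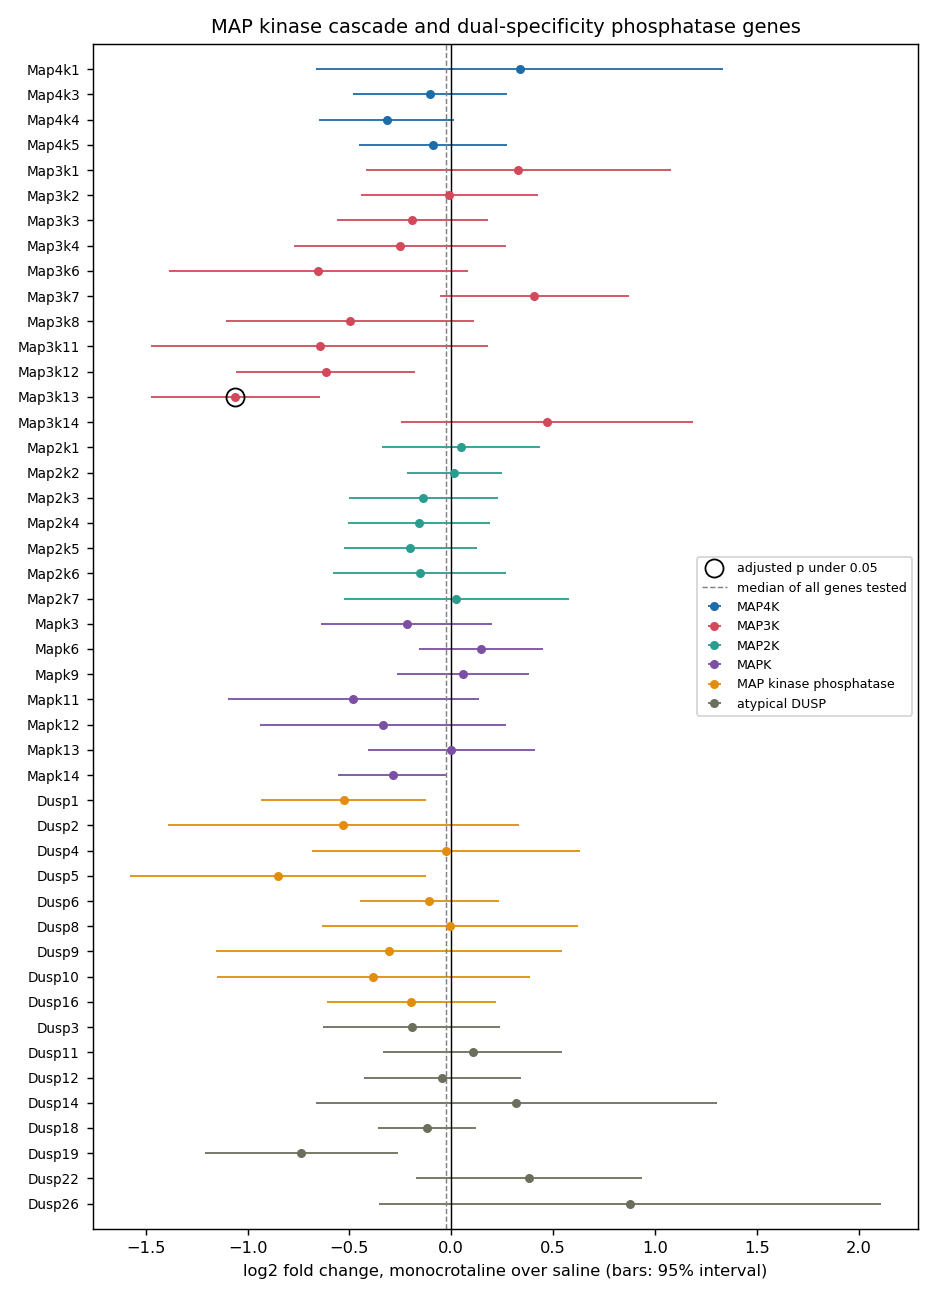
Log2 fold change of the tested members reported here, monocrotaline over saline, with its 95% interval (n = 4 arrays per group), grouped and coloured by role class. The circled point is Map3k13 at -1.06, the one member past the adjusted threshold, and the dashed line is the median of all genes at -0.03.

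The 75th percentile of log2 signal, to which each array was scaled, was 10.64 to 11.10 on the monocrotaline arrays and 10.03 to 10.88 on the saline arrays, with saline replicate 2 the dimmest. Between 70.8% and 77.7% of the spots on an array were well above background, and log2 signals of pairs of arrays correlated across genes at 0.962 to 0.986. All 8 arrays lay on 1 slide and were scanned on 1 day, with monocrotaline in slide row 2 and saline in slide row 1, so slide row and group cannot be told apart. The CD31-selected cells carried endothelial markers: 14 of 15 were measured, all above background on all 8 arrays. By mean log2 signal, T and NK cell and cycling cell markers were higher on every monocrotaline array than on every saline array. The other cell type lists, endothelial among them, overlapped between the groups. Of the 14 endothelial markers 0 had a positive fold change. At an unadjusted limma p under 0.05, 7 of them were lower, against 7.23% of all genes. Wholly below saline lay 2 of them, against 3.99% of all genes. The summed signal of the 14 endothelial markers, in units of each array's 75th percentile, was 157 to 272 on monocrotaline arrays and 247 to 351 on saline arrays. Their median log2 fold change was -0.54, with 0 called. Other cell types were bright too, so the RNA was not endothelial alone. The sum of 4 erythroid markers was 99.2 to 407 on monocrotaline arrays and 96.3 to 183 on saline arrays. For 7 alveolar epithelial markers it was 67.5 to 116 and 18.2 to 165. For 12 fibroblast and mural markers it was 40.9 to 87.9 and 11.8 to 86.7. The summed signal of 17 measured T and NK cell markers (of 18) was 16.5 to 30.4 on monocrotaline arrays and 3.91 to 9.21 on saline arrays, with a median log2 fold change of 1.51 and 3 called. Of 11 cycling cell markers measured, 10 rose, with a median of 1.35. The mean log2 signal of 6 airway cell markers stood at 2.86 and 3.00 above the saline mean on monocrotaline replicates 1 and 3. It was 0.42 and 0.71 on monocrotaline replicates 2 and 4 and at most 0.82 on the saline arrays. An alternative therefore left out monocrotaline replicates 1 and 3. The summed signal of these markers overlapped, at 28.7 to 58.5 on monocrotaline arrays and 45.3 to 60.3 on saline arrays. Tppp3, the brightest of the 6, had a log2 fold change of -0.54 ± 0.26, and 5 were positive. In bulk RNA of this kind, fewer cells of a type and less RNA per cell cannot be told apart, and the part of these shifts in the values below was not tested.

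**Figure D2:**
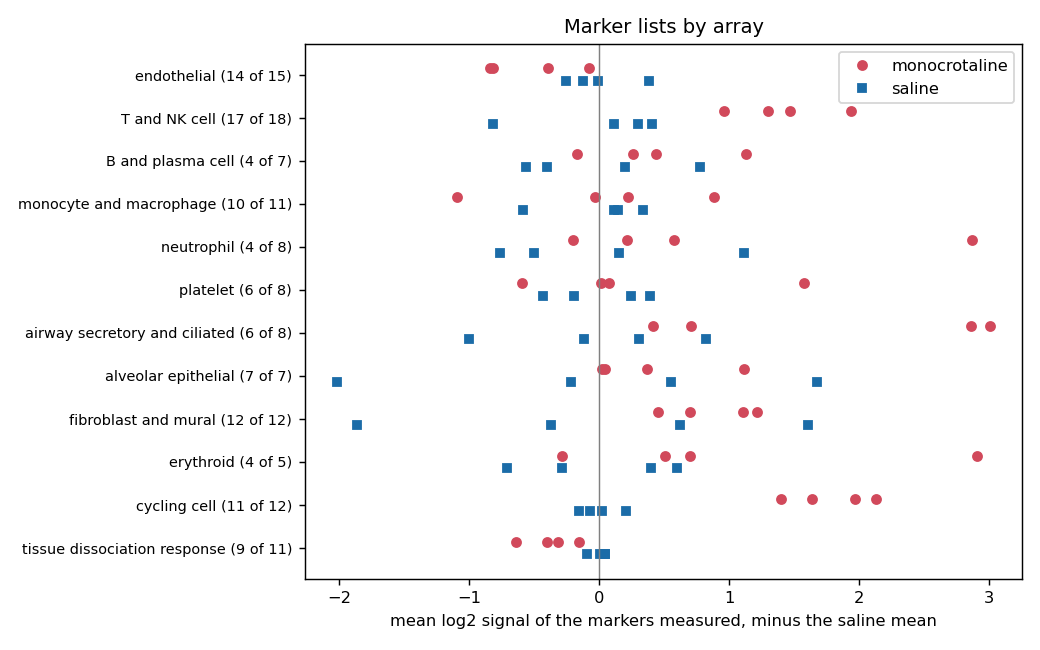
Mean log2 signal of each marker list on each array, minus the saline mean, with the number of markers measured of those listed. The 4 monocrotaline arrays lie above all saline arrays for T and NK cell and cycling cell markers and below them for the tissue dissociation genes.

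Map3k13, also called LZK, is a leucine zipper-bearing kinase that activates the JNK branch through MAP2Ks. Its scaled log2 signal, which is the log2 signal minus the array's 75th percentile, was -4.81, -4.75, -5.32 and -5.19 on monocrotaline arrays 1 to 4, against -4.22, -3.77, -4.08 and -3.76 on saline arrays 1 to 4. The groups did not overlap, and the gap between the nearest arrays was between monocrotaline replicate 2 and saline replicate 1. Map3k13 fell, its log2 fold change being -1.06 ± 0.18 (SE from limma over 4 arrays a group, as for all fold changes here), with adjusted p = 0.0334. That is a 2.08-fold lower signal, with a 95% interval of -1.47 to -0.65 on the log2 scale.

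The probe for Map3k13 had 1 spot on the array and was dim. Its processed signal before scaling was 56.8, 74.9, 42.7 and 60.2 on monocrotaline arrays 1 to 4, against 93.1, 76.2, 111 and 126 on saline arrays 1 to 4. These values lie above the lowest signals that counted as well above background, which ran from 9.68 to 17.3 over the 8 arrays. Among the 12 genes that fell, its change was the fifth largest. The call was kept in 9 and lost in 12 of 21 alternatives, with adjusted p from 0.0274 to 0.189 and a log2 fold change from -1.16 to -0.62. Leaving out 1 array ended the call for 7 of the 8 arrays, all but monocrotaline replicate 2 (adjusted p from 0.0337 to 0.113), and normexp background correction with 75th percentile scaling gave -0.69 with adjusted p = 0.0780.

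**Figure D3:**
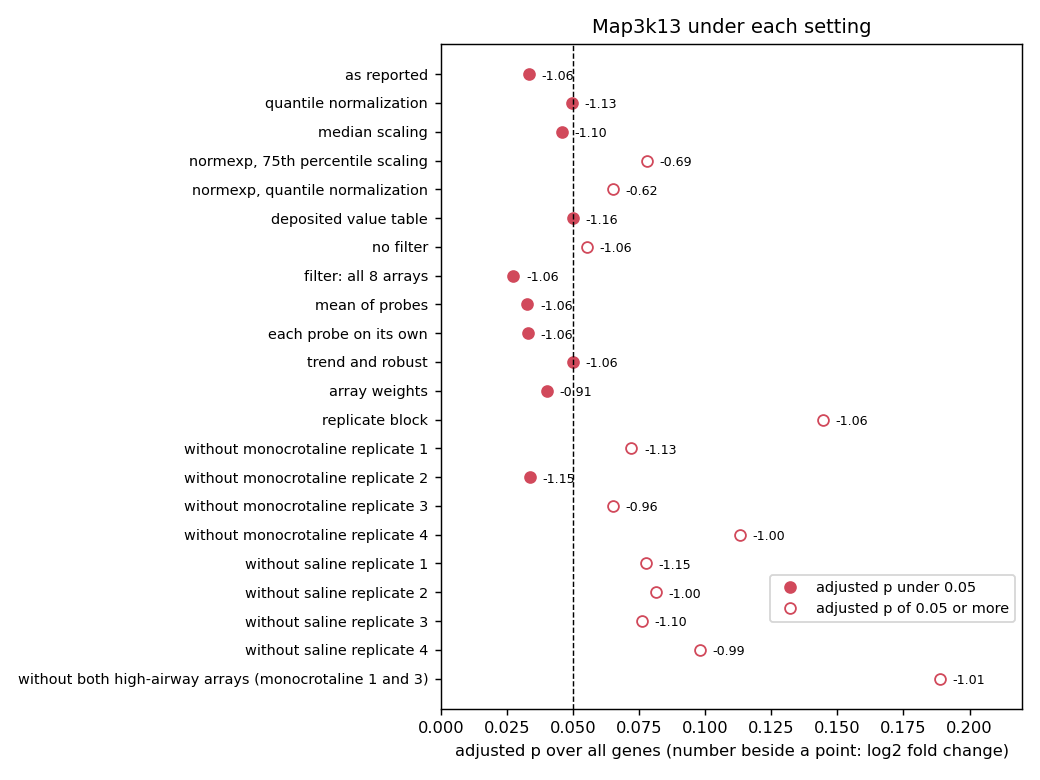
Adjusted p of Map3k13 over all genes under each processing setting, with the log2 fold change beside each point and the threshold of 0.05 as a dashed line. Filled points passed and open points did not, and every log2 fold change lies between -1.16 and -0.62.

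The nearest relative of Map3k13 is Map3k12, or DLK, a kinase best known for starting the JNK injury response of axons. Map3k12 had scaled log2 signals of -1.74, -1.13, -1.37 and -1.67 on monocrotaline arrays 1 to 4, against -0.88, -1.21, -0.81 and -0.55 on saline arrays 1 to 4. Saline replicate 2 lay within the range of the monocrotaline arrays. Its log2 fold change was -0.62 ± 0.19 (limma adjusted p = 0.21, unadjusted p = 0.0116). Map3k11, or MLK3, a mixed-lineage kinase that also acts on JNK, had -0.65 ± 0.36 (limma adjusted p = 0.46), and its lowest array was monocrotaline replicate 4 at -2.84. Of the 7 mixed-lineage kinase genes in RefSeq, a grouping made after the values were seen, these 3 were tested, and all 3 had a negative fold change.

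Other MAP3Ks had changes on both sides of 0. Of 11 tested, 1 fell, 0 rose, 8 were negative and 3 positive, and the median log2 fold change was -0.25. With 1 array left out this median ran from -0.41 without saline replicate 2 to -0.18 without saline replicate 4. It was -0.40 without monocrotaline replicate 3. Map3k7, or TAK1, which carries cytokine receptor signals to JNK, p38 and NF-kB, had a log2 fold change of 0.41 ± 0.20 (limma adjusted p = 0.41), or 0.22 without monocrotaline replicate 4, and Map3k14, or NIK, of the noncanonical NF-kB pathway, had 0.47 ± 0.31 (adjusted p = 0.54). Map3k6, an ASK family kinase, had -0.65 ± 0.32, with saline replicate 4 at 2.58 against 0.65 to 1.40 on the monocrotaline arrays and 1.17 to 1.42 on the other saline arrays. Map3k8, or TPL2, which links inflammatory receptors to ERK, had -0.50 ± 0.27 (adjusted p = 0.44). Map3k3 and Map3k2 stand at the head of the ERK5 branch, and Map3k3 is needed for blood vessel formation in mouse embryos. Map3k3 had -0.19 ± 0.16 (95% interval -0.56 to 0.18), where its second probe gave -0.26, and Map3k2 had -0.01 ± 0.19 (95% interval -0.45 to 0.43). Map3k1 had 0.33 ± 0.33 and Map3k4 had -0.25 ± 0.23.

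**Figure D4:**
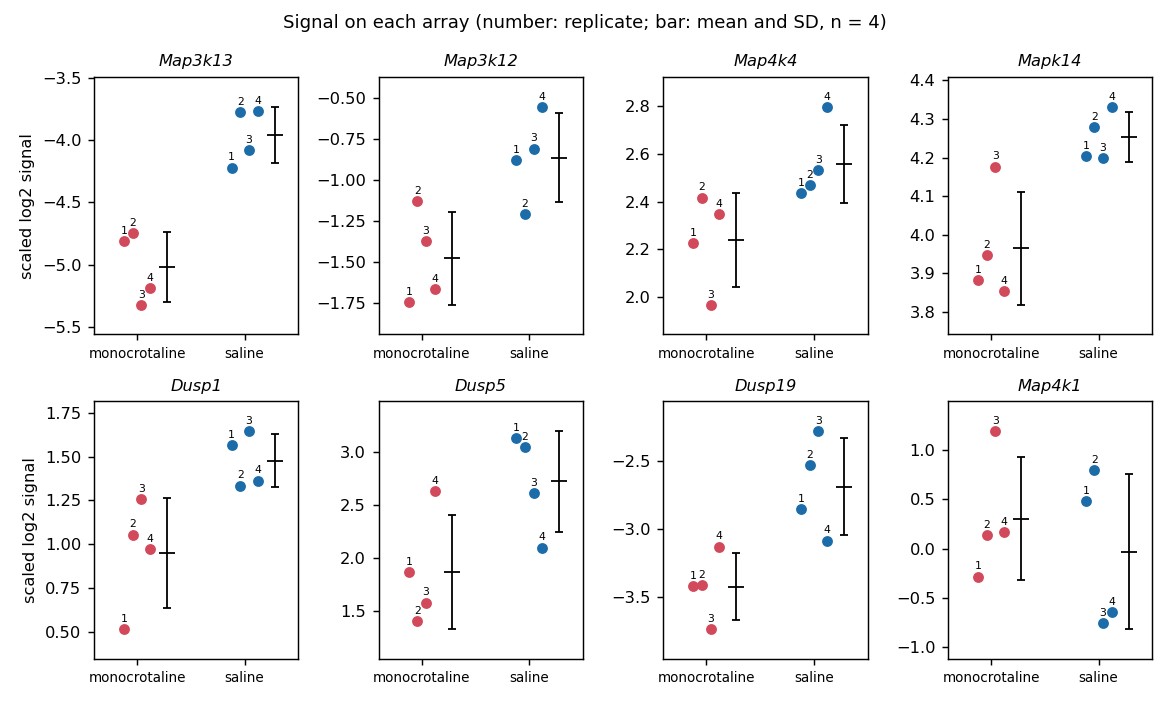
Scaled log2 signal of 8 members on each array (points, numbered by replicate), with the mean and SD of each group of 4 beside them. Monocrotaline and saline arrays do not overlap for Map3k13, Map4k4, Mapk14, Dusp1 and Dusp19, and they overlap for Map3k12, Dusp5 and Map4k1.

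At the top of the cascade, 4 of 5 MAP4Ks were tested and 0 were called. Map4k4, which acts on JNK and has been tied to endothelial permeability and inflammation in mice, had scaled log2 signals of 2.23, 2.42, 1.97 and 2.35 on monocrotaline arrays 1 to 4, against 2.43, 2.47, 2.53 and 2.80 on saline arrays 1 to 4. The groups did not overlap, but monocrotaline replicate 2 and saline replicate 1 were nearly level. The log2 fold change was -0.32 ± 0.14 (limma adjusted p = 0.38), and a second probe gave -0.24 ± 0.16. Map4k3, which acts in amino acid sensing by mTORC1, had -0.10 ± 0.16 (adjusted p = 0.83), and Map4k5 had -0.09 ± 0.16 (adjusted p = 0.84).

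Map4k1, or HPK1, is a kinase of blood cells that restrains T and B cell receptor signalling. Its scaled log2 signal was -0.28, 0.14, 1.19 and 0.17 on monocrotaline arrays 1 to 4, against 0.48, 0.80, -0.76 and -0.64 on saline arrays 1 to 4. Monocrotaline replicate 3 was the highest array, and the groups overlapped, and the log2 fold change was 0.34 ± 0.44 (limma adjusted p = 0.78, 95% interval -0.67 to 1.34). The mean of the B and plasma cell markers, 4 measured of 7, was -0.17, 0.26, 1.12 and 0.44 above the saline mean on monocrotaline arrays 1 to 4, against 0.20, 0.77, -0.56 and -0.40 on saline arrays 1 to 4. The arrays thus stood in the same order within each group as for Map4k1, a likeness noticed after the values were seen. The T and NK cell markers did not follow that order: their mean was 1.30, 0.96, 1.93 and 1.46 on monocrotaline arrays 1 to 4, against 0.41, 0.11, 0.30 and -0.82 on saline arrays 1 to 4. Without monocrotaline replicate 3 the Map4k1 fold change was 0.04, and without saline replicate 2 it was 0.61. The summed B and plasma cell signal was 18.7 to 57.5 on monocrotaline arrays and 13.7 to 43.0 on saline arrays. The part of either list in the Map4k1 values was not tested.

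The 7 MAP2Ks, the tier with the fewest known substrates, were all measured, with 0 calls and a median log2 fold change of -0.14. That median was 0.016 without monocrotaline replicate 1 and -0.048 without monocrotaline replicate 4. It was -0.022 without monocrotaline replicates 1 and 3, so its sign depended on which arrays were left out. Their fold changes lay between -0.20 and 0.05, within a narrower span than those of the MAP3Ks. Map2k1 and Map2k2, which activate the classical ERKs, had 0.05 ± 0.17 (95% interval -0.34 to 0.43) and 0.02 ± 0.10 (95% interval -0.22 to 0.25). Map2k2 was the tightest member, at 4.22 to 4.30 on the monocrotaline arrays and 4.15 to 4.31 on the saline arrays. Map2k4 and Map2k7, the pair that activates JNK, had -0.16 ± 0.15 and 0.02 ± 0.24. The second probe of Map2k4 gave 0.02, the one case among 6 members with several probes where the sign differed between probes. Map2k3 and Map2k6, which activate p38, had -0.14 ± 0.16 and -0.15 ± 0.19. Map2k5, the activator of ERK5, had -0.20 ± 0.14 (95% interval -0.53 to 0.13).

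Among the MAPKs 8 were tested, with 0 calls and a median log2 fold change of -0.11. With 1 array left out this median ran from -0.16 without saline replicate 1 to -0.040 without monocrotaline replicate 4. It was -0.061 without monocrotaline replicate 3. Mapk3, or ERK1, had -0.22 ± 0.18 (limma adjusted p = 0.64). Of the JNK genes Mapk9, or JNK2, had 0.06 ± 0.14, while Mapk10, or JNK3, best known from brain, was above background on 1 of 8 arrays and was not tested. Mapk6, the atypical kinase ERK3, had 0.15 ± 0.13.

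The p38 kinases carry stress and cytokine signals. Mapk14, or p38 alpha, had scaled log2 signals of 3.88, 3.95, 4.18 and 3.85 on monocrotaline arrays 1 to 4, against 4.20, 4.28, 4.20 and 4.33 on saline arrays 1 to 4. The groups did not overlap, although monocrotaline replicate 3 came close to the saline arrays. The log2 fold change was -0.29 ± 0.12 (limma adjusted p = 0.33, unadjusted p = 0.0388). Mapk11, or p38 beta, had -0.48 ± 0.27 by its brighter probe and -0.41 ± 0.19 by the other (limma adjusted p = 0.46 and 0.39). Mapk12, or p38 gamma, had -0.34 ± 0.26, with monocrotaline replicate 3 at -1.18 against -0.24 to -0.15 on the other monocrotaline arrays. Mapk13, or p38 delta, had 0.00 ± 0.18.

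The MAP kinase phosphatases had 9 of 10 members tested, 0 calls, 0 positive and 9 negative fold changes, and a median of -0.31. With quantile normalization, either normexp setting or the deposited values 8 of the 9 were negative, and with array weights 7 of 9. Without monocrotaline replicate 3, saline replicate 3 or saline replicate 4 it was also 7 of 9. Leaving out monocrotaline replicate 2 gave a median of -0.19, leaving out monocrotaline replicate 4 gave -0.47 and leaving out saline replicate 4 gave -0.53. It was -0.13 when monocrotaline replicates 1 and 3 were both left out. Dusp4 at -0.03 ± 0.29 and Dusp8 at -0.01 ± 0.27 were close to 0. The median of the endothelial markers, with all 8 arrays, was -0.54, and their part in the phosphatase values was not tested.

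Dusp1, or MKP-1, is an immediate-early phosphatase that turns off p38 and JNK. Dusp1 had scaled log2 signals of 0.51, 1.05, 1.26 and 0.97 on monocrotaline arrays 1 to 4, against 1.57, 1.33, 1.65 and 1.36 on saline arrays 1 to 4. All monocrotaline arrays lay below all saline arrays, and monocrotaline replicate 1 was the lowest. The log2 fold change was -0.53 ± 0.18 (limma adjusted p = 0.25, unadjusted p = 0.0164). Genes that tissue digestion is known to induce are given beside Dusp1. Of 11 listed 9 were measured, and their summed signal was 120 to 167 on monocrotaline arrays and 181 to 190 on saline arrays. They had 0 calls, 9 negative fold changes and a median of -0.37, and 4 of the 9 lay wholly below saline, against 3.99% of all genes. Single genes ran from -0.63 ± 0.17 for Zfp36 to -0.11 ± 0.21 for Nr4a1, and their mean was also lowest on monocrotaline replicate 1, at -0.64 from the saline mean. Their part in the Dusp1 values was not tested.

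Dusp5 is a nuclear phosphatase of ERK that growth factor signalling induces, and it has been studied in vessel development in zebrafish. Its scaled log2 signal was 1.87, 1.41, 1.58 and 2.62 on monocrotaline arrays 1 to 4, against 3.12, 3.04, 2.61 and 2.10 on saline arrays 1 to 4. The groups overlapped, since monocrotaline replicate 4 lay above saline replicates 3 and 4. The log2 fold change was -0.85 ± 0.32 (limma adjusted p = 0.30, unadjusted p = 0.0271, 95% interval -1.58 to -0.12). Dusp6, the cytoplasmic ERK phosphatase whose transcript follows ERK activity, was level, at 3.53 to 4.12 on monocrotaline arrays and 3.77 to 4.03 on saline arrays, with -0.11 ± 0.15 (95% interval -0.45 to 0.23).

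Dusp2, or PAC-1, is a phosphatase of activated leukocytes. Dusp2 had scaled log2 signals of 0.03, -1.35, -0.04 and 0.04 on monocrotaline arrays 1 to 4, against 0.51, 0.64, 0.18 and -0.54 on saline arrays 1 to 4. Monocrotaline replicate 2 and saline replicate 4 stood lowest in their groups, and the fold change was -0.53 ± 0.38 (limma adjusted p = 0.57). Without monocrotaline replicate 2 it was -0.19, and over all alternatives it ran to -0.85. Dusp10, or MKP-5, which acts on JNK and p38, was lowest on the same arrays, at -5.45 on monocrotaline replicate 2 and -5.21 on saline replicate 4, with -0.38 ± 0.34 overall. The mean of the monocyte and macrophage markers, 10 measured of 11, was also lowest there, at -1.10 and -0.59 from the saline mean, against -0.03 to 0.88 on the other monocrotaline arrays and 0.12 to 0.33 on the other saline arrays. The T and NK cell markers were lowest on these arrays too, at 0.96 on monocrotaline replicate 2 and -0.82 on saline replicate 4. The B and plasma cell markers were not, at 0.26 and -0.40. The endothelial markers were the highest of their groups there, at -0.08 and 0.38. These likenesses were noticed after the values were seen. The summed monocyte and macrophage signal was 89.2 to 166 on monocrotaline arrays and 131 to 218 on saline arrays. The part of any of these lists in the Dusp2 and Dusp10 values was not tested. Dusp16 and Dusp9 had -0.20 ± 0.18 and -0.31 ± 0.37, and Dusp9 was above background on 3 of 4 arrays in either group.

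**Figure D5:**
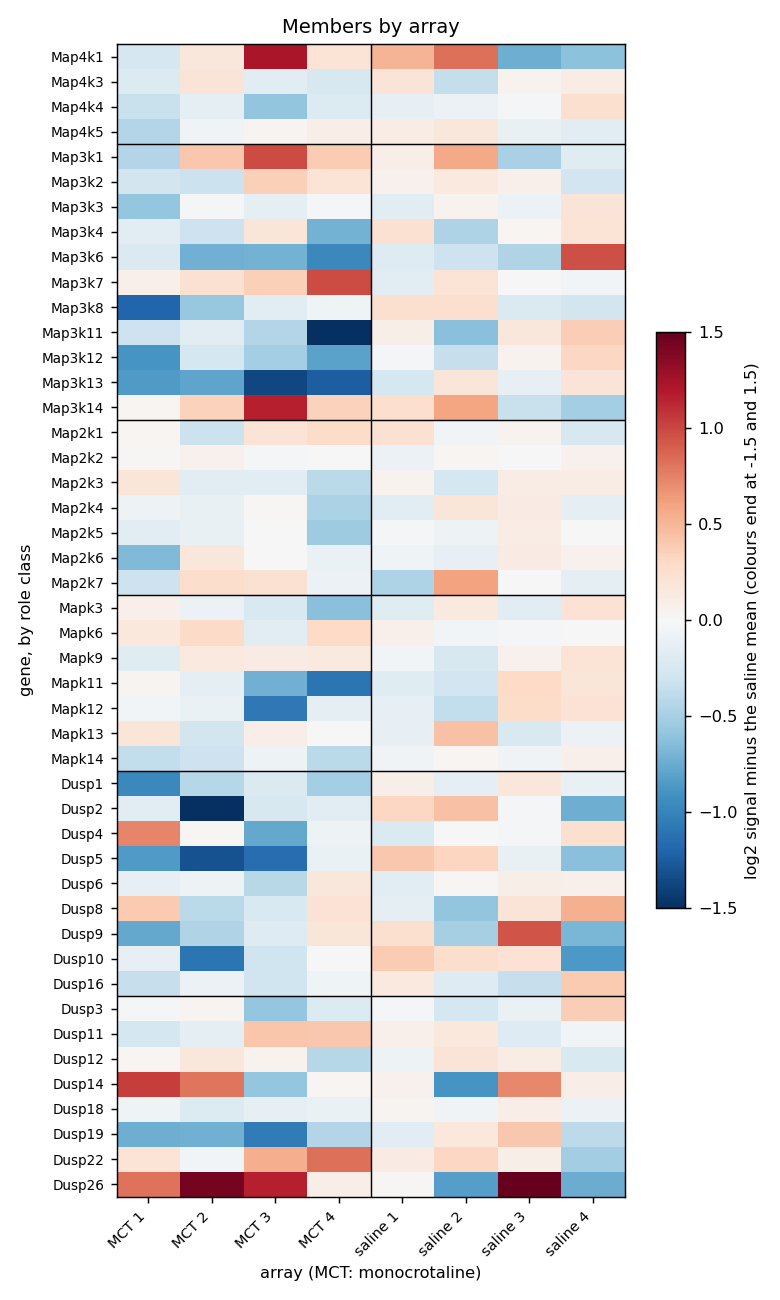
Log2 signal of the tested members reported here on each array, minus the mean of the 4 saline arrays, with lines between role classes and between groups. The Map3k13 row is below the saline mean on all 4 monocrotaline arrays. The same holds for many other rows, among them Map3k12, Map4k4, Mapk14, Dusp1, Dusp2, Dusp5 and Dusp19.

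The atypical DUSPs lack the docking domain and act on MAPKs only in part or not at all. Of 11 with a probe 8 were tested, with 0 calls, 4 positive and 4 negative fold changes and a median of 0.03, which turned to -0.032 without monocrotaline replicate 3. Dusp19, or SKRP1, which in cell culture binds the JNK activator Map2k7, had scaled log2 signals of -3.42, -3.41, -3.74 and -3.13 on monocrotaline arrays 1 to 4, against -2.86, -2.53, -2.28 and -3.09 on saline arrays 1 to 4. The groups did not overlap, but monocrotaline replicate 4 and saline replicate 4 were nearly level. The log2 fold change was -0.74 ± 0.21 (limma adjusted p = 0.16, unadjusted p = 0.0069). Dusp26 had the largest positive value of the 47, 0.88 ± 0.54 (adjusted p = 0.50), with a spread of -4.63 to -2.24 over the saline arrays that covered the monocrotaline arrays, at -3.71 to -2.37. It was 1.40 without saline replicate 3 and 0.44 with normexp and 75th percentile scaling. Dusp22, a phosphatase that damps T cell receptor signalling, had 0.38 ± 0.24, Dusp14 had 0.32 ± 0.43 and Dusp11 had 0.11 ± 0.19. Dusp3, or VHR, which acts on ERK and JNK, had -0.19 ± 0.19, and Dusp18 and Dusp12 had -0.12 ± 0.11 and -0.04 ± 0.17. Dusp21 and Dusp29 were above background on 1 of 8 arrays each, as was Mapk15, and Dusp15 on 0, so these were not tested.

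The precision of the arrays limits these statements by gene. For 31 of the 47 members the 95% interval of the log2 fold change lay wholly within a 2-fold change in either direction, and for 20 within a 1.5-fold change. For 11 the interval reached a 2-fold fall and for 5 a 2-fold rise, so a change of that size lies within the error of these. The 14 symbols with no probe named through its accession, not analysed here, were Map4k2, Map3k5, Map3k9, Map3k10, Map3k15, Map3k19, Map3k20, Map3k21, Mapk4, Mapk7, Mapk8, Dusp7, Dusp23 and Dusp28. They include ERK5 (Mapk7), JNK1 (Mapk8) and ASK1 (Map3k5).

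Other genes of the pathway, 72 tested on 7 lists, gave 1 rise and 0 falls, against 1.37% and 0.0627% of all genes, so the share called is near that of all genes. Fosl1, an AP-1 subunit that ERK signalling induces, rose by 2.94 ± 0.39 on the log2 scale (limma adjusted p = 0.0143). It had scaled log2 signals of -2.44, -3.97, -3.48 and -2.64 on monocrotaline arrays 1 to 4, against -5.51, -6.14, -6.81 and -5.84 on saline arrays 1 to 4. Fosl1 was above background on 6 of 8 arrays, since 2 saline arrays were not, so its size rests on dim saline signals. Its call was lost in 5 of 20 alternatives, among them normexp with 75th percentile scaling (1.35, adjusted p = 0.0547). Leaving out monocrotaline replicate 4 also ended it (adjusted p = 0.0571), as did leaving out saline replicate 1 (adjusted p = 0.0521). Of the 13 ERK target genes tested 1 rose and 0 fell, with a median of -0.11. For the 15 genes of RAS and RAF input the median was -0.13. The median was -0.16 for the 9 genes of stress input to JNK and p38, -0.15 for the 8 scaffolds and -0.17 for the 12 transcription factors that MAPKs phosphorylate. It was -0.01 for the 6 feedback inhibitors of RAS to ERK signalling. All 5 of these lists had 0 rises and 0 falls. Wholly below saline in them lay Hras (log2 fold change -0.45 ± 0.14), the scaffold Lamtor2 (-0.26 ± 0.13) and the transcription factor Mef2a (-0.18 ± 0.11), and wholly above lay the JNK scaffold Spag9 (0.20 ± 0.12). Among the ERK targets Ier2 lay wholly below saline (-0.37 ± 0.13) and Fosl1 wholly above. Such patterns were found in 3.99% of all genes below saline and 4.56% above, and these genes were picked after their values were seen.

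Among the 9 kinases downstream of MAPKs, 0 rose and 0 fell, and the median was -0.16. In 3 of them, which were picked after their values were seen, the groups did not overlap, against 3.99% of all genes wholly below saline. Mknk1 and Mknk2, the kinases by which ERK and p38 reach the translation factor eIF4E, were 2 of these. Mknk1 had scaled log2 signals of -0.10, -0.13, 0.13 and -0.02 on monocrotaline arrays 1 to 4, against 0.39, 0.24, 0.60 and 0.63 on saline arrays 1 to 4. Its log2 fold change was -0.50 ± 0.13 (limma adjusted p = 0.15), that of Mknk2 was -0.42 ± 0.13 (adjusted p = 0.22), and that of the third, Mapkapk5, was -0.16 ± 0.11 (adjusted p = 0.55).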

How the data were processed

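Total RNA from 4 monocrotaline and 4 saline rats was read on 1-colour Cy3 arrays, 1 per rat, with 10 ng of RNA amplified per the labels' protocols. Per the file headers the scanner signals are intensity values from Agilent Feature Extraction 10.7.3.1, background-subtracted and detrended within an array and not scaled between arrays, and the deposited flag columns hold other values, 0 or 1 per spot. In the deposited table of values, log2 had been applied to signals already on the log2 scale: undoing 1 log2 gave quantile-normalized log2 signals (median absolute difference 9.89e-10), and these served as an alternative. Limma 3.6.9 is listed, with no role, per the submitters' processing notes.

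Control spots and outlier-flagged spots were left out, spots of a probe averaged, log2 signals scaled to each array's 75th percentile, and probes kept if well above background on at least 4 of 8 arrays (21652 of 30367). Accessions named 18006 probes. The brightest probe stood for a gene. Groups were compared with limma 3.58.1 in R 4.3.3 (two-sided, adjusted by Benjamini and Hochberg over 19137 genes), a procedure tested on simulated data. The members, lists and tests were chosen with earlier results of these data known. Genes were named if called, if their groups did not overlap, if largest in their role class, or from a fixed list of members, 3 of which had no probe. The other members are given with their values too, except that 1 tested member, included in the counts, is not reported here. Alternatives were other scalings, background corrections, filters, probe rules and variance models, the deposited table, a replicate block and leaving out arrays. The number of arrays limits the precision.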

Additional observations from a re-analysis of the deposited data

Results flagged for a closer look

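Of 104 groups, 6 (4 arrays each, for 52 members) held an array far from the other 3 by Dixon's ratio at the 95% level, where chance gives about 1 in 20. Dusp2 was at -1.35 on monocrotaline replicate 2, Map4k3 at -3.03 on monocrotaline replicate 2, Mapk12 at -1.18 on monocrotaline replicate 3 and Mapk9 at -1.46 on monocrotaline replicate 1. Dusp10 was at -5.21 on saline replicate 4 and Map2k3 at 1.82 on saline replicate 2. All are scaled log2 signals.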

How the results depend on the processing

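For the 21 genes that the naming rule took, 408 of 440 values under the alternatives kept their direction and their side of the threshold, 17 lost the call (12 of Map3k13 and 5 of Fosl1) and 15 changed sign (Map2k7, Map2k1 and Dusp6). The count of members that rose was 0 in all settings. The count that fell, 1, was 0 with either normexp setting, with no filter, with the replicate block and without monocrotaline replicates 1 and 3, and 0 to 1 with 1 array left out. Over all genes the 262 rises and 12 falls became 0 and 0 with the replicate block, 51 and 1 without monocrotaline replicates 1 and 3, and 11 to 273 and 0 to 93 with 1 array left out (lowest without saline replicate 1, highest without monocrotaline replicate 2). The falls were 21 with normexp and 75th percentile scaling, 22 with normexp and quantile normalization, and 59 with array weights. The share of rises among calls, 95.6%, was 90.1% and 91.7% with the normexp settings, 86.2% with array weights and 74.6% without monocrotaline replicate 2. Same-numbered arrays of both groups lay in the same slide column. Their deviations from the group means correlated at -0.33 to -0.01, and with the block Map3k13 had limma adjusted p = 0.144. Map2k7, 0.02, was -0.038 with quantile normalization, -0.017 with median scaling, -0.078 with normexp and 75th percentile scaling, -0.043 with normexp and quantile normalization and -0.066 with the deposited table. With 1 array left out it ran from -0.13 to 0.22, and Map2k1, 0.05, from -0.032 to 0.17. Map2k1 was -0.074 with array weights and -0.022 without monocrotaline replicates 1 and 3, where Dusp6, -0.11, was 0.052. The cause of these differences was not tested. Dim probes, Map3k13 among them, are limited by their signal over background.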
